A study of Mus musculus with 16 samples.

Results

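The 10 genes described here encode transcription factors of fat cell formation and related lipid receptors. They include the PPAR nuclear receptors Pparg, Ppara and Ppard and the C/EBP leucine zipper factors Cebpa, Cebpb and Cebpd. The rest are the receptor partners Rxra and Rxrg, the early B-cell factor Ebf1 and the oxysterol receptor Nr1h3. All 10 were chosen by gene symbol. Each was measured by 1 probe set annotated to that symbol alone, out of 22180 genes on the array. A further probe set shared by Ppard and another symbol was not used. Gonadal white adipose tissue was taken in the morning from male C57BL/6 mice aged 3 to 4 months, 8 samples after 16 hours without food (fasted) and 8 from fed mice. No transgene or deletion is named in the labels. Whether 1 mouse gave 1 sample is not stated in the labels, and the p-values therefore describe variation among these arrays, some of which may be technical.

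In fat cell formation, C/EBPβ and C/EBPδ act early and are followed by PPARγ and C/EBPα, which keep each other switched on and hold the mature adipocyte program in place. PPARs and LXRs bind DNA as pairs with a retinoid X receptor, at repeats of a short shared motif, and respond to fatty acids or sterols. C/EBPβ and C/EBPδ are also known as factors whose transcripts respond quickly to hormones, cAMP and inflammation. The comparison asks which of these regulators changed in transcript level when food was withdrawn and which did not.

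Of the 10 regulators, 4 changed at a limma adjusted p under 0.05 over all 22180 genes, against 19.2% of all genes. Cebpd and Nr1h3 rose and Rxrg and Cebpa fell, so 2 of 10 were higher, against 8.49% of all genes, and 2 of 10 were lower, against 10.7%. Pparg, Ppara, Ppard, Rxra, Cebpb and Ebf1 did not pass the test. Ordered by their log2 difference, fasted minus fed, the regulators ran from Cebpd at 1.62 through Cebpb, Nr1h3, Ppara, Ppard, Pparg, Rxra, Ebf1 and Cebpa to Rxrg at -1.06. The median over all genes was -0.0042.

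**Figure D1:**
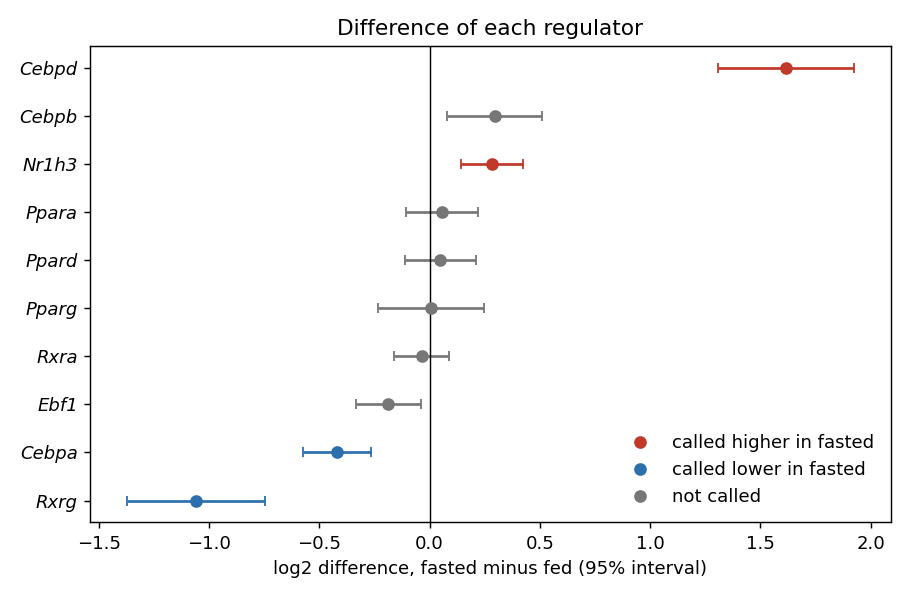
Log2 difference of each regulator, fasted minus fed (x axis, log2 units), with its 95% interval from limma over 8 fasted and 8 fed arrays. Red points passed the test as higher in fasted samples (Cebpd, Nr1h3), blue points as lower (Cebpa, Rxrg), and the 6 grey points did not pass; the intervals of Cebpb and Ebf1 lie to one side of 0.

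The 8 measured adipocyte markers were bright in all arrays, with a list mean of 11.12 to 11.34 on the log2 scale in fasted and 11.06 to 11.29 in fed arrays, against array medians of 3.60 to 3.69 over all probe sets. Arrays correlated with each other at 0.966 to 0.993 over all genes, and no pair was identical. Markers of ciliated epithelium were high in fed replicate 2 (list mean 4.94) and fasted replicate 7 (4.40), against 2.71 to 3.31 in the other arrays. Liver transcripts ranged from 5.88 to 8.22 in fasted and from 5.71 to 8.85 in fed arrays. The highest were fed replicates 3 (8.85), 2 (8.58) and 4 (8.47). An alternative fit left out fed replicates 2 and 3 and fasted replicate 7, called the 3 set-aside arrays below. Some results are given without fed replicate 2 alone. The 9 measured stromal progenitor markers (0 higher, 3 lower) had list means of 8.62 to 9.32 in fasted and 8.96 to 9.23 in fed arrays. Macrophage markers (3 of 10 higher, 1 lower) stood at 8.27 to 8.86 in fasted and 8.34 to 8.50 in fed arrays, and endothelial markers (3 of 10 higher, 0 lower) at 8.54 to 8.84 in fasted and 8.26 to 8.76 in fed arrays. Of all genes, 8.49% were called higher and 10.7% lower, so the macrophage count that fell is near that share. All measured markers of the stromal, macrophage and endothelial lists are among the brighter genes, where the shares called are larger, as given above. The part of these marker differences in the results below was not tested. In a bulk tissue, fewer cells of a type and less RNA per cell cannot be told apart.

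Cebpd, which encodes C/EBPδ, showed the widest separation. Its log2 level had a lowest, median and highest value of 5.54, 5.98 and 6.59 in fasted arrays, against 3.99, 4.51 and 4.74 in fed arrays. Every fasted array lay above every fed array, a separation seen in 6.48% of all genes and in no other of the 10 regulators. The mean was 6.03 ± 0.37 in fasted and 4.41 ± 0.26 in fed arrays (SD, n = 8 each), a 3.07-fold rise (log2 difference 1.62, SE 0.15, limma adjusted p = 2.52e-07). Of all genes, 92 had a larger log2 difference in either direction. Of the fed arrays 5 of 8 reached a log2 level of 4.32, a linear value of 20, as did all 8 fasted arrays, so Cebpd was dim in fed fat. The fasted arrays also spread widely, from 5.54 in replicate 6 to 6.59 in replicate 8.

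Cebpa, which encodes C/EBPα, the C/EBP factor of the mature adipocyte, moved the opposite way. Its log2 level had a lowest, median and highest value of 9.34, 9.58 and 9.64 in fasted arrays, against 9.60, 9.996 and 10.08 in fed arrays. The groups touched only through fed replicate 2, the array with the highest ciliated epithelium markers, which at 9.60 lay within the fasted range while the next lowest fed array stood at 9.93. Cebpa averaged 9.53 ± 0.11 in fasted and 9.95 ± 0.15 in fed arrays (SD, n = 8 each), 1.34-fold lower after fasting (log2 difference -0.42, SE 0.073, limma adjusted p = 3.23e-04). Without fed replicate 2 the log2 difference was -0.47 (limma adjusted p = 2.71e-05).

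Cebpb, which encodes C/EBPβ, lay between its relatives and at the edge of the test. It had a lowest, median and highest log2 level of 6.47, 6.75 and 7.14 in fasted arrays, against 6.25, 6.48 and 6.67 in fed arrays, and 5 of 8 fasted arrays lay above the highest fed array. The log2 difference was 0.29 (SE 0.10, 95% interval 0.080 to 0.51), with a limma adjusted p of 0.0508. The call was gained when 1 of 6 arrays was omitted (fasted replicate 4, 5 or 6, or fed replicate 1, 4 or 7; limma adjusted p = 0.0244 to 0.0498), and lay on the other side of the threshold in 12 of 30 alternative fits in all, always as higher in fasted arrays.

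The 3 C/EBP transcripts differed from each other in response. Within each array the log2 value of 1 gene was subtracted from that of another, and the mean of that difference was compared between fasted and fed arrays by an exact two-sided permutation test, adjusted over the 7 pairs tested within the PPAR, C/EBP and RXR families. The response of Cebpd exceeded that of Cebpa by 2.04 on the log2 scale (95% interval 1.65 to 2.42) and that of Cebpb by 1.32 (0.89 to 1.75). The response of Cebpb exceeded that of Cebpa by 0.71 (0.49 to 0.94). Each of the 3 had an exact permutation p of 0.000155, the smallest the design allows, an adjusted p of 3.63e-04, and no overlap between the fasted and fed arrays (n = 8 each).

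The windows from 250 bases before to 50 bases after the annotated start of Cebpa and Cebpb are printed here because these genes differed in response. They were taken from RefSeq's GRCm38.p6 annotation, both on the plus strand. Capitals mark every match, on either strand, to 9 short motifs: the nuclear receptor motif AGGTCA, a C/EBP site TTGCNNAA, the cAMP response element TGACGTCA, the glucocorticoid receptor motif AGAACA, the FOXO site TGTTTAC, the E-box CACGTG, the GC box GGGCGG, the CCAAT box CCAAT and the TATA box TATAAA.
Cebpa, chr7:35119043-35119342, plus strand: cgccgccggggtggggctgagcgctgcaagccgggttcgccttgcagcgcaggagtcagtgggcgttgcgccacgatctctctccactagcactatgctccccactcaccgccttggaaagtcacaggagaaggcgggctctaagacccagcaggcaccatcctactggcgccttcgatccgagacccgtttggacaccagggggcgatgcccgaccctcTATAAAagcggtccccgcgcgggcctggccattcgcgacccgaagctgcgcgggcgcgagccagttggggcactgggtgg
Cebpb, chr2:167688665-167688964, plus strand: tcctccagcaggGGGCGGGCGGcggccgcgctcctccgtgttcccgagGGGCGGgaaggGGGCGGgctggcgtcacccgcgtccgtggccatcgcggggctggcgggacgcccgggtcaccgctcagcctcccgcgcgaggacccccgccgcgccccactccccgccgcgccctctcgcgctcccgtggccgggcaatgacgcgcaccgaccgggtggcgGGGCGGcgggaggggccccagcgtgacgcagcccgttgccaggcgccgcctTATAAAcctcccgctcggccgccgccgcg

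The only match in the Cebpa window was a TATA box at position -30 from the start, a motif held by 13.6% of 32851 promoter windows of the same length. The Cebpb window held 5 matches to the GC box, of which the first pair overlaps, against at least 1 in 35.7% of all windows, and a TATA box match at position 21, after the annotated start. The Cebpa window had 29 CpG dinucleotides and a GC content of 67.3%, and the Cebpb window 50 and 80.7%. These are matches of letters and not measured binding.

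Rxrg, which encodes the retinoid X receptor γ, fell, and its relative Rxra did not pass the test. The lowest, median and highest log2 level of Rxrg was 2.96, 3.13 and 3.57 in fasted arrays, against 3.37, 4.25 and 4.84 in fed arrays. Of the fasted arrays 7 of 8 lay below the lowest fed array, which was fed replicate 2 at 3.37; the next lowest fed array stood at 4.10. Rxrg averaged 3.18 ± 0.19 in fasted and 4.24 ± 0.42 in fed arrays (SD, n = 8 each), lower after fasting (log2 difference of the deposited values -1.06, SE 0.15, limma adjusted p = 3.99e-05). Without fed replicate 2 the log2 difference was -1.18 (limma adjusted p = 3.93e-07). The probe set was dim: 0 of 8 fasted and 3 of 8 fed arrays reached a log2 level of 4.32, and the fasted mean lay below the array medians. No fold is therefore given, and Rxrg is the 1 regulator that a filter on low values removes.

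Rxra, the partner of PPARs and LXRs that is found in most tissues, had the tightest values of the 10. It had a lowest, median and highest log2 level of 8.28, 8.46 and 8.64 in fasted arrays, against 8.40, 8.51 and 8.59 in fed arrays. Its log2 difference was -0.034 (SE 0.059, limma adjusted p = 0.785), with a 95% interval of -0.16 to 0.090, or 0.896 to 1.06 as a fasted over fed ratio. Its SD within groups was 0.089, lower than that of all but 2.03% of genes. The response of Rxrg, on its dim probe set, differed from that of Rxra by -1.02 on the log2 scale (95% interval -1.38 to -0.67, exact permutation p = 4.66e-04, adjusted p = 8.16e-04 over 7 pairs, n = 8 each).

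RefSeq's table lists 2 start windows for each RXR gene, and 1 of each is printed because the transcripts differed in response; capitals mark the same 9 motifs.
Rxrg, chr1:167618015-167618314, plus strand: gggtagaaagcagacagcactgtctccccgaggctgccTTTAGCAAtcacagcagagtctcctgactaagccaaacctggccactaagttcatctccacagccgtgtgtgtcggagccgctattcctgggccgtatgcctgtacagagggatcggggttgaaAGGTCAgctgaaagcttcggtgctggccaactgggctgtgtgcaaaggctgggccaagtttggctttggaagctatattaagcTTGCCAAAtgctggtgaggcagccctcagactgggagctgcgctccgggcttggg
Rxra, chr2:27676951-27677250, plus strand: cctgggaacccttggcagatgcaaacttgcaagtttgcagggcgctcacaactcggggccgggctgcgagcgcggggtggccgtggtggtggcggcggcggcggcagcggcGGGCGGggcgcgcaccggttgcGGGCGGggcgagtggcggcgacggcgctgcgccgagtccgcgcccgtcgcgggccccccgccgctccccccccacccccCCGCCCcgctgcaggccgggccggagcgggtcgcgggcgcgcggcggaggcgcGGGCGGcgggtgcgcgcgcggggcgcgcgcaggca

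This Rxrg window held 1 nuclear receptor motif, at position -88 and present in 16.3% of all windows, and 2 C/EBP site matches, at positions -212 and -5, a motif present in 10.8%. The other Rxrg window held a CCAAT box match only, and had 13 CpG dinucleotides. The Rxra window held 4 GC box matches and 55 CpG dinucleotides, against 9 CpG dinucleotides in the Rxrg window shown. The other Rxra window had 1 CpG dinucleotide and 2 nuclear receptor motifs, at positions -87 and -48. The contrast in CpG count and in motifs between the 2 genes thus depends on which windows are set side by side.

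None of the 3 PPAR transcripts passed the test. Pparg, which encodes the receptor that drives fat cell formation and is the target of the thiazolidinedione drugs, had a lowest, median and highest log2 level of 10.20, 10.36 and 10.64 in fasted arrays, against 9.87, 10.46 and 10.69 in fed arrays. The fasted range lay within the fed range. Pparg averaged 10.40 ± 0.17 in fasted and 10.39 ± 0.29 in fed arrays (SD, n = 8 each), a log2 difference of 0.0072 (SE 0.11, limma adjusted p = 0.981). Its 95% interval of -0.23 to 0.25, or 0.851 to 1.19 as a ratio, bounds the change that these samples allow. Among the fed arrays the lowest was again fed replicate 2, and without it the log2 difference was -0.066 (limma adjusted p = 0.747).

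Ppara, which drives fatty acid oxidation in liver, averaged 4.62 ± 0.17 in fasted and 4.56 ± 0.12 in fed arrays (SD, n = 8 each). Its lowest, median and highest log2 level was 4.47, 4.58 and 4.97 in fasted arrays, against 4.39, 4.58 and 4.73 in fed arrays, so that 1 fasted array lay above the fed range. The log2 difference was 0.056 (SE 0.079, 95% interval -0.11 to 0.22, limma adjusted p = 0.723). All 16 arrays reached the log2 level of 4.32, but most stood little above it, so Ppara was dim in both groups. This limits what its difference, and the pair differences with Ppara below, can show. Ppard, the broadly expressed PPAR, had a lowest, median and highest log2 level of 6.42, 6.50 and 6.78 in fasted arrays, against 6.16, 6.50 and 6.68 in fed arrays. Its log2 difference was 0.048 (SE 0.077, 95% interval -0.11 to 0.21, limma adjusted p = 0.765). Between the PPARs the responses differed by -0.049 (Pparg minus Ppara, 95% interval -0.38 to 0.28), -0.041 (Pparg minus Ppard, -0.22 to 0.14) and 0.0086 (Ppara minus Ppard, -0.21 to 0.23). None of these 3 differences passed the exact permutation test (adjusted p = 0.872 to 0.935 over 7 pairs, n = 8 each), and the intervals give the range of differences that the samples allow.

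Pparg has 3 annotated start windows in RefSeq's table, and its single probe set does not tell the resulting transcripts apart. The window of the most downstream start is printed because it alone of the 3 held C/EBP site matches.
Pparg, chr6:115421816-115422115, plus strand: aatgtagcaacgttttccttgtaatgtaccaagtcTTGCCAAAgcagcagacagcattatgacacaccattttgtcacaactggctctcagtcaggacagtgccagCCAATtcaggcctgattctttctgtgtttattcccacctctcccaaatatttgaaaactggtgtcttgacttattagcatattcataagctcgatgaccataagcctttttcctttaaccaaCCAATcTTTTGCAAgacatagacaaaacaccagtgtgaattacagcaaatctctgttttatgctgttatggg

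In it, C/EBP site matches began at positions -215 and -16, and CCAAT box matches at -144 and -22, a motif present in 37.4% of all windows. Its GC content was 40.3%, with 2 CpG dinucleotides. The other windows had GC contents of 80.3% and 62.7% and each held a nuclear receptor motif, at positions -28 and -9. All 3 are described by their letters alone.

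Nr1h3, which encodes LXRα, the sterol sensor that raises cholesterol export and lipogenic genes, rose by a small step. It had a lowest, median and highest log2 level of 6.92, 7.09 and 7.20 in fasted arrays, against 6.64, 6.78 and 6.97 in fed arrays. Of the fasted arrays 6 of 8 lay above the highest fed array. It averaged 7.07 ± 0.10 in fasted and 6.79 ± 0.12 in fed arrays (SD, n = 8 each), 1.22-fold higher after fasting (log2 difference 0.28, SE 0.066, limma adjusted p = 0.00434). Its SD within groups was 0.11, against a median of 0.20 over all genes. Nr1h3 is also expressed in macrophages, and the 10 macrophage markers moved in both directions in the same arrays. Cd68, Cd14 and C1qb rose (log2 differences 0.88, 0.43 and 0.30), Mrc1 fell (-0.23), and 6 were not called, among them Itgam (-0.32), Csf1r (-0.22), Trem2 (-0.17) and Adgre1 (-0.17). The list median was -0.095, and the part of these cells in the difference was not tested.

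Ebf1, which encodes a factor of B cells and of fat cell precursors that acts upstream of Pparg and Cebpa, had a lowest, median and highest log2 level of 9.50, 9.63 and 9.81 in fasted arrays, against 9.68, 9.82 and 10.02 in fed arrays. Of the fasted arrays 5 of 8 lay below the lowest fed array. The log2 difference was -0.19 (SE 0.070, 95% interval -0.33 to -0.041), with a limma adjusted p of 0.0704. It passed the threshold without fasted replicate 4 (limma adjusted p = 0.0433) and without fed replicates 2 and 3 and fasted replicate 7 (log2 difference -0.24, limma adjusted p = 0.0499). With Ebf1, 6 of 10 regulators were called in the first case, where Cebpb also passed, and 5 of 10 in the second. With all arrays kept, Ebf1 passed under the 2 filters on dim genes (limma adjusted p = 0.0299 and 0.0305), array weights (0.0351), trend and robust eBayes (0.0368) and cyclic loess (0.0384). It did not pass with repeated quantile normalization (0.125) or array medians subtracted (0.214). The direction was lower in fasted arrays in all 30 alternative fits, some of which could not change the log2 difference.

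**Figure D2:**
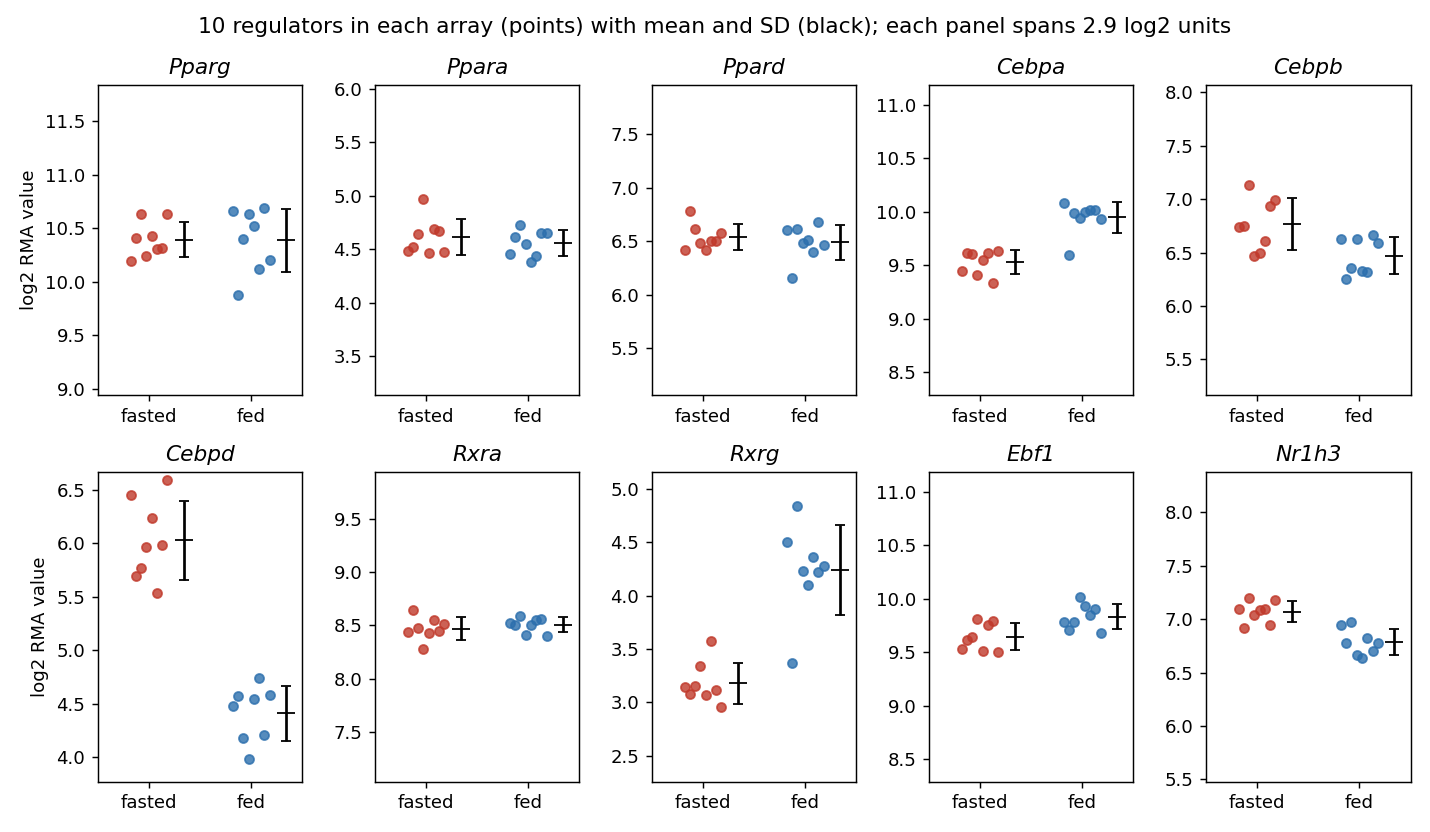
Log2 RMA value (y axis) of each regulator in the 8 fasted (red) and 8 fed (blue) arrays, with the group mean and SD in black. All panels span the same number of log2 units; Cebpd is separated in every array, Cebpa and Rxrg in all but 1 fed array, and the PPARs and Rxra overlap.

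Of 45 pairs of regulators, each centred on its group means over the 16 arrays, the highest correlation was that of Pparg and Ppard (Pearson's r = 0.74, permutation p = 0.00222, adjusted p = 0.0587; Spearman's rho = 0.70, permutation p = 0.00328). When fed replicates 2 and 7, the 2 most extreme arrays for Pparg, were omitted, r was 0.50. Pparg and Cebpa gave r = 0.71 (permutation p = 0.00261, adjusted p = 0.0587; rho = 0.55, permutation p = 0.0226), and 0.49 without the same arrays. Ppard and Cebpa gave r = 0.73 (permutation p = 0.00541, adjusted p = 0.0676; rho = 0.61, permutation p = 0.0146), and 0.39 without fed replicate 2 and fasted replicate 2. Pparg and Cebpb gave r = 0.62 (permutation p = 0.00601, adjusted p = 0.0676; rho = 0.61, permutation p = 0.00607), and 0.55 without fed replicates 2 and 7. The pairs above had the highest r. The most negative was Cebpd with Ebf1 (r = -0.60, permutation p = 0.0220, adjusted p = 0.198, rho = -0.63), and r was -0.49 without fasted replicates 8 and 6. Cebpa with Rxra gave r = 0.43 and rho = 0.67, and r was 0.79 without fed replicate 2 and fasted replicate 7. None of the 45 passed after adjustment. Fed replicate 2 was the lowest fed array for 5 of the 10 regulators, namely Pparg, Ppard, Cebpa, Cebpb and Rxrg, and it also had the lowest adipocyte list mean (11.06) and the highest ciliated epithelium list mean (4.94). Its array weight (0.593) was the lowest of the 16. How often it was the lowest fed array over all genes was not counted, so the 5 of 10 is not shown to be particular to these regulators.

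**Figure D3:**
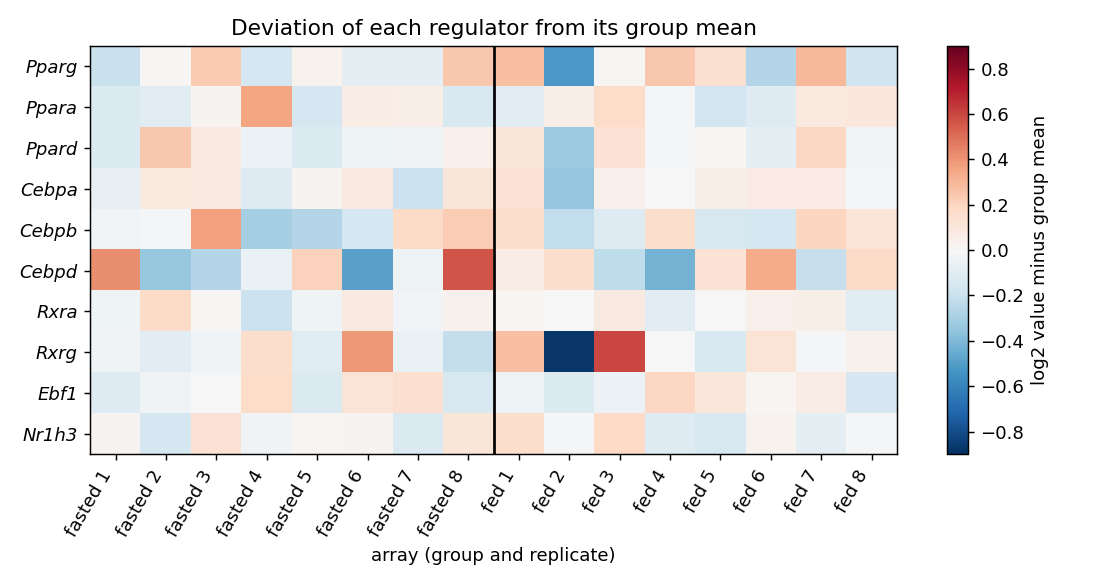
Deviation of each regulator (rows) from its group mean on the log2 scale, by array (columns, fasted left of the line and fed right of it); red is above and blue below the mean. In fed replicate 2, Pparg, Ppard, Cebpa, Cebpb and Rxrg are all below the fed mean.

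The genes most like each regulator in these within-group deviations were taken from the brighter genes (mean at or above the median), 2 for each. They were Cd320 and Taldo1 for Cebpa (r = 0.92 and 0.86 over 16 arrays), Slc30a9 and Pinx1 for Pparg (0.88 and 0.86), Pigp and Ly6c2 for Cebpd (0.87 and 0.81) and Smarca5 and Rpp40 for Cebpb (0.83 and 0.82). They were Ghr and Wwc2 for Ebf1 (0.84 and 0.81), Il2rb and Tusc1 for Nr1h3 (0.87 and 0.79), Isca1 and Tmem11 for Rxra (0.83 and 0.80) and I830077J02Rik and Usp38 for Rxrg (0.83 and 0.79). Caprin2 and C2cd5 were nearest to Ppara (0.83 and 0.82), and Adat2 and Gm15706 to Ppard (0.86 and 0.82). Spearman's rho was lower for some, the lowest being 0.56 for Gm15706 with Ppard, 0.63 for I830077J02Rik with Rxrg and 0.65 for Caprin2 with Ppara. These are the highest of many Pearson correlations over few arrays and are a description only.

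Of 11 measured relatives none was called by limma, against 19.2% of all genes, a share that few of 11 genes would make up. Of the 11, 2 had an unadjusted limma p under 0.05, and the exact rank sum test called 0. The log2 differences, fasted minus fed, ran from -0.30 for Ddit3, the C/EBP homolog that blocks other C/EBPs, to 0.10 for Cebpg. The rest were Cebpe (-0.073), the retinoid receptors Rxrb (0.036), Rara (-0.21), Rarb (-0.024) and Rarg (-0.055), the bile acid receptor Nr1h4 (-0.048), and the early B-cell factors Ebf2 (0.058), Ebf3 (-0.092) and Ebf4 (-0.033). Ddit3 was called lower without fed replicate 3 (limma adjusted p = 0.0243) and without the 3 set-aside arrays (0.0149), and Rara without fasted replicate 6 (0.0207).

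Other transcription factors of fat cell formation moved in both directions. Of 32 measured, 6 rose, against 8.49% of all genes, and 12 fell, against 10.7%, with a median log2 difference of -0.10. Of the 32, 27 are among the brighter genes, of which 1970 of 10832 rose and 2583 fell, and the 6 that rose are near that share. Most genes of the target lists below are also bright: 26 of 28 for PPARγ, 19 of 23 for PPARα or PPARδ, 13 of 15 for LXR and 14 of 16 for C/EBPs. The shares over all genes are therefore low marks for these lists. Klf4, a Krüppel-like factor that acts early in fat cell formation, rose 1.88-fold (7.85 ± 0.17 in fasted and 6.94 ± 0.19 in fed arrays, SD, n = 8 each), and its relative Klf9 rose 1.71-fold. Tcf7l2, the Wnt pathway factor, rose 1.54-fold. Srebf1, the driver of lipogenic genes, fell 3.94-fold (6.01 ± 0.28 in fasted and 7.98 ± 0.32 in fed arrays), and Mlxipl, the glucose-responsive factor ChREBP, fell 1.82-fold. Sox9, a factor of precursor cells, fell 2.62-fold with a wide spread (4.54 ± 1.05 in fasted and 5.93 ± 0.75 in fed arrays, limma adjusted p = 0.0191), a call that an exact rank sum test did not give (adjusted p = 0.0541). Groups did not overlap for 9 of the 32, against 6.48% of all genes.

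Among 21 measured coregulators of these receptors, 4 rose (8.49% of all genes did) and 3 fell (10.7% of all genes did), with a median log2 difference of 0.0028. The count that fell, 3 of 21, is near the share over all genes. All 21 are among the brighter genes, of which 1970 of 10832 rose and 2583 fell. Against these, the 4 of 21 that rose are near the share and the 3 that fell lie below it. Trib3, a pseudokinase that binds signalling kinases and transcription factors, rose 1.97-fold. Lpin1, a phosphatidate phosphatase that also acts as a coactivator, rose 1.31-fold, and Tle3, a corepressor of the Groucho family, rose 1.25-fold. Nrip1, the corepressor RIP140, fell 1.70-fold, Cdk5, a kinase known to phosphorylate PPARγ in mouse fat, fell 1.69-fold, and Tbl1x, a part of the NCoR corepressor complex, fell 1.35-fold. Tle3 was not called when 1 of 12 arrays was omitted (limma adjusted p = 0.0523 to 0.0836). These 12 were all but fasted replicates 1 and 5 and fed replicates 4 and 6. It was also not called with array weights (limma adjusted p = 0.0636) or without the 3 set-aside arrays (0.124). The exact rank sum test did not call it either (adjusted p = 0.113). Of the 21 coregulators, 2 were called higher without the 3 set-aside arrays.

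Known targets of PPARγ in adipocytes divided while Pparg itself did not pass the test. Of 28 measured targets, 8 rose, 9 fell and 11 were not called, where 8.49% of all genes rose and 10.7% fell, and the median log2 difference was 0.027. The groups did not overlap for 13, against 6.48% of all genes. The fatty acid transporter Slc27a1 rose 2.96-fold (10.79 ± 0.23 in fasted and 9.22 ± 0.21 in fed arrays, SD, n = 8 each). The ubiquitin ligase Pdzrn3 rose 2.05-fold and Pck1, which feeds glycerol synthesis, rose 1.64-fold. The lactate receptor Hcar1 fell 5.67-fold (6.31 ± 0.37 in fasted and 8.81 ± 0.36 in fed arrays), Dgat2, which makes triglyceride, 5.10-fold and Gpd1, which makes glycerol phosphate, 4.38-fold. The list also holds the 8 measured adipocyte markers, of which 3 rose, 2 fell and 3 were not called. Pnpla2, the main triglyceride lipase, rose 1.52-fold, and the lipid droplet proteins Plin4 and Cidec rose 1.28-fold and 1.19-fold. Plin1, the lipid droplet coat protein, fell 1.79-fold without overlap, and the hormone resistin (Retn) fell 1.19-fold. Fabp4 (log2 difference 0.063), Adipoq (-0.12) and Lipe (-0.0093) did not pass. These 8 are the whole marker list.

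The fatty acid targets of PPARα or PPARδ, taken as 1 list, mostly rose. Of 23 measured, 14 rose, against 8.49% of all genes, and 3 fell, a count near the 10.7% of all genes. The median log2 difference was 0.49, while neither Ppara nor Ppard passed the test. Pdk4, which switches off pyruvate dehydrogenase, rose 10.01-fold (10.69 ± 0.14 in fasted and 7.37 ± 0.22 in fed arrays, SD, n = 8 each), and the pantetheinase Vnn1 rose 9.39-fold. Cyp4a14, a fatty acid hydroxylase, rose with a wide spread among fasted arrays (6.34 ± 1.86, against 2.82 ± 0.23 in fed arrays). Its fed level lay below the array medians, so no fold is given; the log2 difference of the deposited values was 3.52, and 3.49 with the mean of liver transcripts as a covariate. The 3 that fell were enzymes of mitochondrial oxidation, Decr1 (1.31-fold), Acadm (1.28-fold) and Acaa2 (1.21-fold), the last not called after subtraction of array medians (limma adjusted p = 0.0521).

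Targets of LXR moved in both directions beside the rise of Nr1h3. Of 15 measured, 7 rose, against 8.49% of all genes, and 3 fell, against 10.7%, with a median log2 difference of 0.13. Abcg1, the sterol exporter, rose 4.43-fold (8.95 ± 0.31 in fasted and 6.80 ± 0.12 in fed arrays, SD, n = 8 each). Apoe rose 2.04-fold and Apoc1 1.60-fold, both apolipoproteins. Fasn, the fatty acid synthase, fell 4.76-fold, and Srebf1 and Mlxipl were the other two that fell. Macrophages also express Abcg1 and Apoe, and their part was not tested.

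Genes whose promoters are known to be bound by C/EBPs were the last list. Of 16 measured, 2 rose, a count near the 8.49% of all genes, and 6 fell, against 10.7%, with a median log2 difference of 0.023. With array medians subtracted, 4 fell. Leptin (Lep) fell 3.81-fold (9.37 ± 0.89 in fasted and 11.30 ± 0.39 in fed arrays, SD, n = 8 each), the insulin-responsive glucose transporter Slc2a4 3.46-fold, and Steap4, a metalloreductase, 3.34-fold. The insulin receptor Insr rose 1.74-fold and Pck1 1.64-fold. Slc2a4, Pck1 and Fabp4 stand in both this list and that of PPARγ targets, Scd1 in both this list and the LXR targets, Lpin1 in both the coregulators and the PPARγ targets, and Srebf1 and Mlxipl in both the LXR targets and the fat cell factors.

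**Figure D4:**
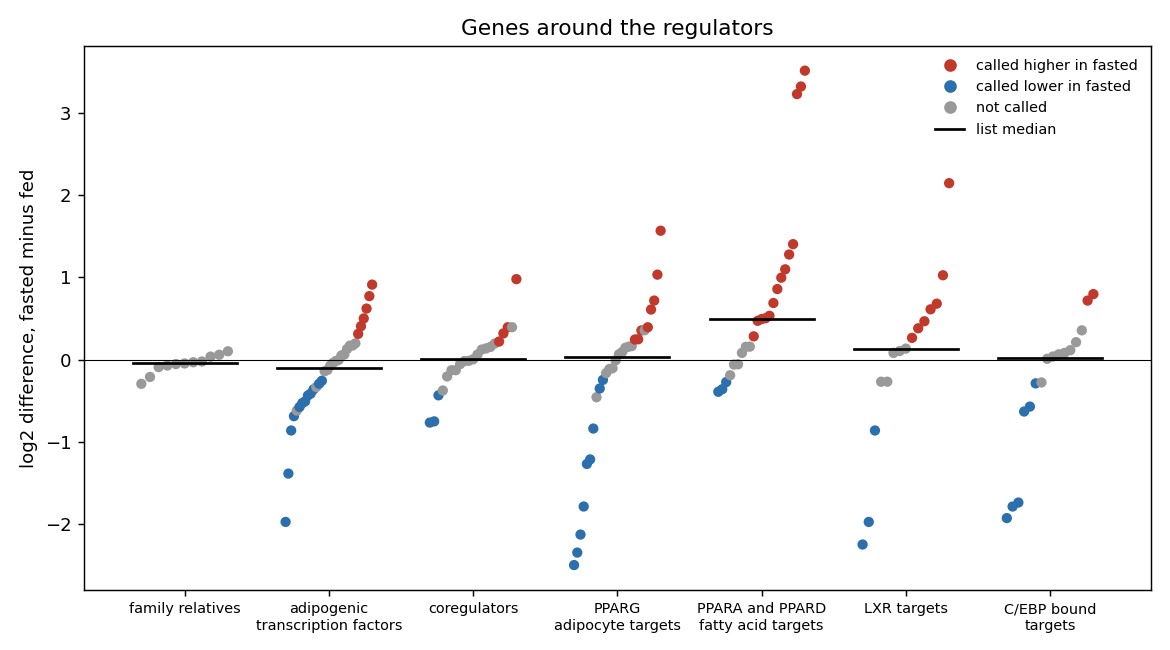
Log2 difference, fasted minus fed (y axis), of each measured gene in 7 lists around the regulators (x axis), ordered by size within a list; red was called higher in fasted samples, blue lower, grey not called, and black bars are list medians. The relatives lie between -0.30 and 0.10, and the PPARα and PPARδ target list has its median at 0.49.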

How the data were processed

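Total RNA of 16 samples was labelled for Affymetrix whole-transcript arrays. The authors deposited log2 values, as their range of 0.99 to 13.2 shows, made with RMA per the submitters' processing notes. Its version, software and filters: not given in the sources used here. Because RMA sets arrays to a shared distribution, changes are relative to the other transcripts. Precision is limited by how many arrays there are.

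The platform annotation gave 1 symbol to 23521 of 41345 probe sets, several to 1814, and 16010 are unnamed here. For each of 22180 genes the probe set with the highest mean was used. Fasted and fed arrays were compared with limma 3.58.1 (lmFit, eBayes) in R 4.3.3, with Benjamini-Hochberg adjustment over all genes and a threshold of 0.05, and the fit was tested on simulated data. Family pairs were compared by exact permutation in Python 3.11.15. The lists hold 267 entries, of which 244 were measured. The genes named from them were up to 3 called members in each direction, and all relatives. Members, lists and tests were chosen with earlier results of these data known. The replicate number stayed out of the fit because the labels do not say that it marks a shared animal, litter or day. Same-numbered fasted and fed samples did not deviate together (correlations from -0.22 to 0.22). Alternatives were 2 filters on dim genes, 3 normalizations, trend and robust eBayes, array weights, the replicate block, other probe set choices, an exact rank sum test, a stricter threshold, a liver covariate and arrays left out. Promoter windows came from RefSeq (GRCm38.p6), which held windows for 9 of the 10 regulators.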

Additional observations from a re-analysis of the deposited data

Results flagged for a closer look

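Of 20 groups of 8 values tested (10 regulators, fasted and fed), 2 held an array whose gap to its nearest neighbour was a large share of the group's range; about 1 in 20 such groups is marked by chance. Ppara stood at 4.97 in fasted replicate 4, against 4.69 in the next fasted array, and this array also had the highest liver list mean of the fasted group (8.22). Cebpa stood at 9.60 in fed replicate 2, against 9.93 in the next fed array, the array with the highest ciliated epithelium markers. Whether tissue composition had a part in either value was not tested.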

How the results depend on the processing

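The calls of Cebpd, Nr1h3, Cebpa and Rxrg kept their direction and stayed past the threshold in all alternatives tested (30 each, 28 for Rxrg, which both filters remove). Each regulator had 1 probe set, so the other probe set choices used the same values. The filters, trend and robust eBayes, replicate block, rank sum test and stricter threshold also left each log2 difference as it was. Direction could not turn in these fits. Cebpb and Ebf1 gained a call in 12 and 7 of 30, and between 4 and 6 regulators were called. Leaving out 1 array gave 4 to 6 called regulators, 2 to 3 higher and 2 to 3 lower. The replicate block changed no call among the 10 (Cebpb log2 difference 0.29, limma adjusted p = 0.0596); it called 3829 genes, against 4251. At an adjusted p under 0.01, 2766 genes were called, 1214 higher and 1552 lower. With array medians subtracted, 2086 were called higher and 1731 lower, against 1883 and 2368. Without the 3 set-aside arrays, 1 relative was called lower (Ddit3) and 2 coregulators higher, against 0 and 4. The list counts under this and the scaling alternatives were added after seeing the data.

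Signs turned only for differences near 0 that were never called. Pparg gave -0.065 without the 3 arrays, -0.031 with array weights, -0.025 with cyclic loess and -0.066 to 0.050 with 1 array left out. Rxra gave 0.0057 with array medians subtracted. Rarb gave 0.037 without the 3 arrays, 0.016 with medians subtracted, 0.0032 with cyclic loess, 0.016 with repeated quantile normalization and -0.091 to 0.11 with 1 array left out. Ebf4 gave 0.0067 with medians subtracted, 0.018 with array weights and -0.085 to 0.0062 with 1 left out. Ebf2 gave -0.022 with its lowest probe set. Nr1h4 and Rarg gave 0.0063 and 0.0060 with repeated quantile normalization, and Nr1h4 -0.10 to 0.015 with 1 left out. With 1 array left out, the difference in response of Pparg and Ppara ran from -0.13 to 0.024, and of Ppara and Ppard from -0.050 to 0.064. The cause was not tested. The C/EBP and RXR differences kept their calls in all alternatives run. Dim probe sets limit Rxrg, Ppara and, in fed arrays, Cebpd.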
